A study of Mus musculus with 6 samples.

Results

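Extracellular proteases and their inhibitors were followed through 9 mouse genes on 6 single-colour Agilent whole-genome arrays: the plasminogen activators Plat and Plau, their receptor Plaur, the tissue inhibitors of metalloproteinases Timp1, Timp2 and Timp3, and the matrix metalloproteinases Mmp2, Mmp9 and Mmp14. Probes were taken by gene name: all non-control probes carrying 1 of these names were kept, which gave 16 of the 41174 probes and 9 of the 27597 gene names on the array. The samples were blastocysts of climacteric females (2 arrays), blastocysts of young females (2 arrays), ooplasts of climacteric females (1 array) and ooplasts of young females (1 array). All were of the strain B6C3 F1 and no treatment or other allele is named in the labels. An ooplast is an oocyte from which the chromosomes have been taken out, a blastocyst is the cavitated embryo made of trophectoderm and inner cell mass, and climacteric means close to the end of reproductive life. The study's title concerns the reprogramming of somatic nuclei by oocytes after reproductive decline. Pool sizes, the origin of the blastocysts and the females' ages in weeks are not given in the sources used here. The design text speaks of biological replicates without naming animals. The p-values therefore reflect only the spread among these arrays, which may be partly technical.

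Plasminogen activators cleave plasminogen to plasmin, a broad protease that degrades fibrin and matrix and can activate metalloproteinases. Plaur, the urokinase receptor, holds Plau at the cell surface. Mmp14 is anchored in the membrane and activates Mmp2 together with Timp2, while Timp proteins block the active sites of metalloproteinases. In the mouse, oocytes store Plat messenger RNA and translate it during meiotic maturation, and trophoblast cells use Plau and Mmp9 when they invade the uterus.

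Levels are given as log2 of the scanner's processed signal minus the log2 of the 75th percentile of the same array, so 0 is the 75th percentile. A probe was called measured on an array when the scanner software marked it as well above background there. Values are compared between arrays for 1 probe, never between probes. Of 43379 non-control spots, 42.2% to 42.4% were well above background on the ooplast arrays and 49.9% to 57.3% on the blastocyst arrays. The 75th percentile was 235 to 238 signal units on the ooplast arrays and 721 to 1111 on the blastocyst arrays, and the number of arrays limits the precision. On the 4 blastocyst arrays all 6 trophectoderm and all 5 inner cell mass markers on the array were measured, and on the ooplast arrays 8 (climacteric) and 7 (young) of 8 oocyte markers were. Of 12 cumulus and granulosa cell markers, 6 to 7 were measured on the blastocyst arrays and 7 on each ooplast array. Their summed signal was between 3.59 and 4.39 on the log2 scale in blastocysts, against 6.56 and 6.59 in ooplasts. Single genes set most of the sum, Cyp19a1 in ooplasts (6.22 climacteric, 6.30 young) and Amhr2 in blastocysts (2.94 to 4.05). Amhr2 went against the sum, at -2.26 in climacteric and -1.87 in young ooplasts, so the markers did not move together with stage. Their part in the stage results was not tested. In the summed signal of 18 macrophage and leucocyte markers, the climacteric ooplast array and replicate 1 of the climacteric blastocysts stood apart from the other 4 arrays. The values are given below beside Timp2. Blastocysts are a mixture of cells, and other cells may have come with either kind of sample. Fewer cells of a type and less RNA per cell therefore cannot be told apart here.

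Of the 16 probes, 4 were measured on all 6 arrays, 2 only on both ooplast arrays, 2 only on the 4 blastocyst arrays, 2 on no array and the rest on some arrays. The level of a probe with no measured signal differed between the stages. Plat probe A_52_P405772, measured nowhere, averaged -5.87 ± 0.25 in blastocysts (SD, n = 4) and -4.40 ± 0.12 in ooplasts (SD, n = 2). Scaling thus places background lower in blastocysts. For a probe not measured in 1 stage the fold is therefore given as a bound, the mean of the bright stage against the lowest measured signal of each array of the dim stage, or the probe's own value there if that was higher. The bound holds for the processed signal only, not under another background correction.

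**Figure D1:**
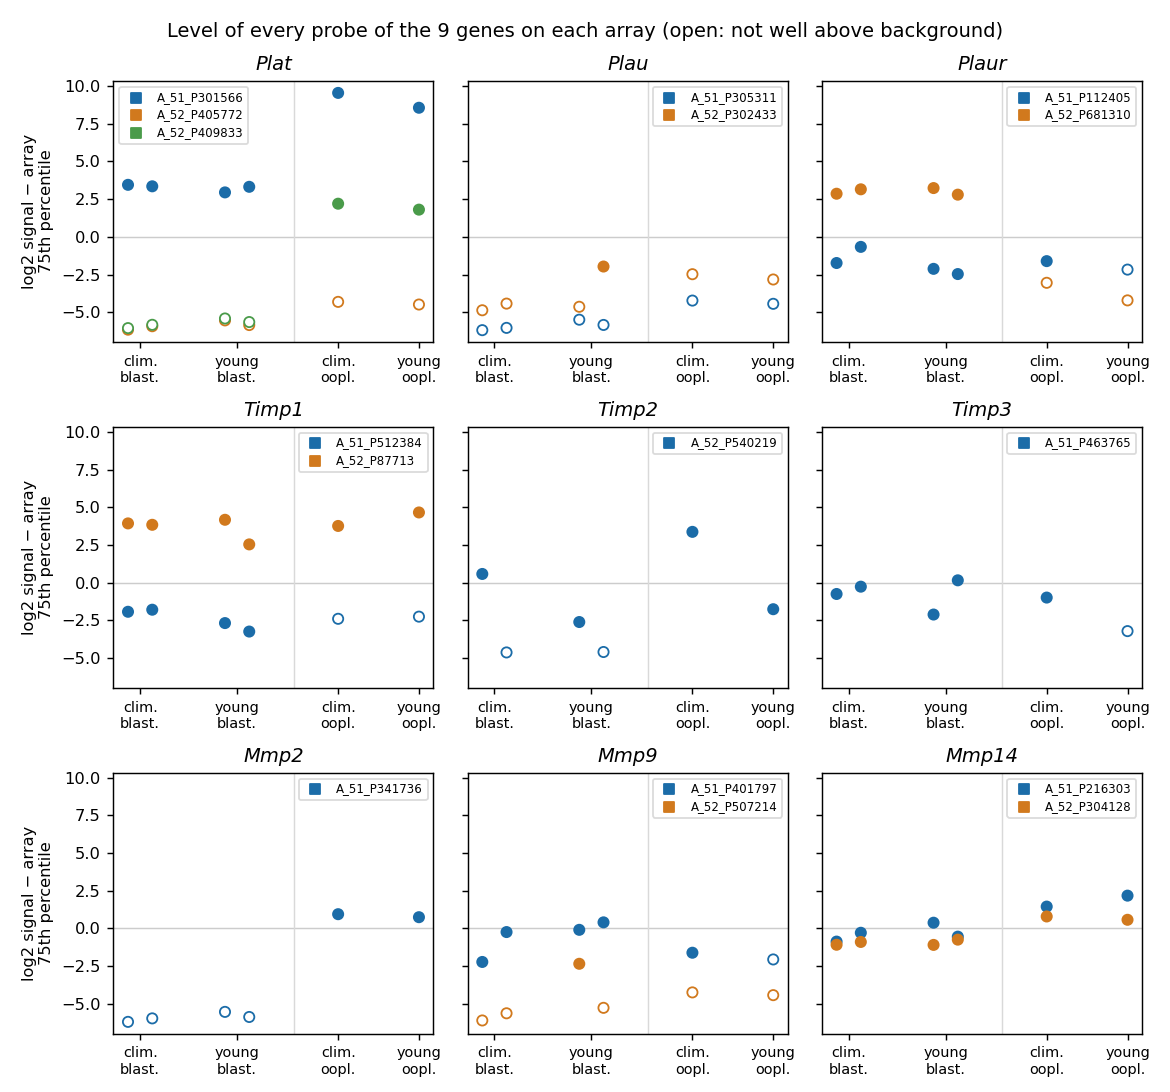
Level of all 16 probes of the 9 genes on the 6 arrays, as log2 processed signal minus the log2 75th percentile of the array (vertical axis), with climacteric blastocysts, young blastocysts, climacteric ooplasts and young ooplasts from left to right and colours standing for probes. Filled points were well above background and open points were not. Plat and Mmp2 are high on the ooplast arrays, Plaur probe A_52_P681310 is high on the blastocyst arrays, and Timp2 ranges between -4.63 and 3.37.

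For the effect of stage, the 4 blastocyst and 2 ooplast arrays were fitted together with age as a second factor. Of the 16 probes, 12 probes of 8 genes were measured on every array of at least 1 stage and were tested. By limma with Benjamini-Hochberg adjustment over all probes, 6 of the 12 passed an adjusted p of 0.05, 1 higher and 5 lower in blastocysts. Among those called, Plaur A_52_P681310, Plat A_52_P409833 and Mmp2 entered the test only through the stage where they were high. Their p-values rest on background in the other stage and add no support beyond where they were measured. Plaur rose in blastocysts, and Plat, Mmp2 and Mmp14 fell. Across the array the same test called 73.7% of 20982 probes, 35.6% higher and 38.2% lower, so a call by itself does not set these genes apart. The stages did not overlap on 6 of the 12 probes, those called, against 79.1% of all tested probes. The median difference of the 12 probes was -1.11, against -0.22 for all probes tested.

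Plat, the tissue-type plasminogen activator, fell in blastocysts on both of the probes that lie closest together. Probe A_51_P301566 (mm8 chr8:24248165-24248225) read 3.45 and 3.35 in climacteric blastocysts and 2.95 and 3.32 in young blastocysts, against 9.55 in climacteric and 8.56 in young ooplasts. It was measured on all 6 arrays and the stages lay far apart without overlap. The means were 3.27 ± 0.22 in blastocysts (SD, n = 4) and 9.06 ± 0.70 in ooplasts (SD, n = 2), a difference of -5.79 ± 0.30 (SE), or 55.2-fold lower in blastocysts, with an adjusted p of 1.61e-05 in limma.

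Probe A_52_P409833 starts 561 bases before that probe (chr8:24247604-24247663). In blastocysts it stayed at background, between -6.05 and -5.41, against 2.20 in climacteric and 1.81 in young ooplasts. Its signal in ooplasts was at least 52.5-fold higher than in blastocysts. The fitted difference, set against background in blastocysts, was -7.74 ± 0.30 (SE), with an adjusted p of 9.98e-06 in limma. Plat messenger RNA was thus measured in blastocysts by 1 of the pair and not by the other. The third Plat probe, A_52_P405772, was designed on the clone sequence AK053476, starts 6230 bases before the second (chr8:24241374-24241433) and was measured nowhere.

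Plau, the urokinase-type activator, was hardly seen. Its probe A_51_P305311 (chr14:19629185-19629551) was measured on no array. Probe A_52_P302433 (chr14:19631572-19631631) was measured only in replicate 2 of the young blastocysts, at -1.97. On the remaining arrays it read -4.87 and -4.43 in climacteric blastocysts, -4.64 in replicate 1 of the young blastocysts, -2.48 in climacteric ooplasts and -2.83 in young ooplasts. Neither probe could be tested for stage or age.

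Plaur, which anchors Plau to the cell surface, was the 1 gene of the 9 that passed the test as higher in blastocysts. The call rests on probe A_52_P681310 (chr7:24184310-24184369). It read 2.86 and 3.15 in climacteric blastocysts and 3.24 and 2.80 in young blastocysts, against -3.05 in climacteric and -4.21 in young ooplasts, where it was not well above background. The blastocyst arrays lay close together and far above both ooplast arrays. In blastocysts the signal was at least 35.6-fold higher. The fitted difference, set against background in ooplasts, was 6.64 ± 0.36 (SE), with an adjusted p of 1.86e-05 in limma.

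The second Plaur probe did not share this difference. A_51_P112405 lies 1254 bases away (chr7:24183056-24183115) and read -1.73 and -0.66 in climacteric blastocysts and -2.12 and -2.47 in young blastocysts, against -1.61 in climacteric ooplasts and -2.17, not well above background, in young ooplasts. Here the stages overlapped, and the difference was 0.14 ± 0.38 (SE; limma adjusted p of 0.744). Its sign turned under some of the other scalings. The files used here do not hold the probes' own sequences, so what part of the transcripts each of them reads was not analysed here.

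The 250 bases before the transcript start were looked up in RefSeq (GRCm38.p6, a later build than the probes' mm8 coordinates) for all 9 genes, and 5 matched: Plaur, Timp1, Timp2, Timp3 and Mmp14. The promoters of Plaur, Mmp14 and Timp2 are shown because these genes carry, among the 5, the rise in blastocysts, the fall in blastocysts and the widest spread between arrays. Capitals mark every match to an AP-1 motif (TGANTCA, its own reverse complement in form) and a GC box (GGGCGG or CCGCCC, on both strands), and the window was also searched for a TATA box (TATAAA or TTTATA). Overlapping or adjoining matches run together in the capitals.
Plaur, chr7:24462233-24462482, plus strand: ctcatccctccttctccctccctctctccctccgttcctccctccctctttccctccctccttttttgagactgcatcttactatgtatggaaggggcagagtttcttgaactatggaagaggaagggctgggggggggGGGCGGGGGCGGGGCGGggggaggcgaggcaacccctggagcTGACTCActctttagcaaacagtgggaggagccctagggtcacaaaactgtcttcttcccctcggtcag
Mmp14, chr14:54431348-54431597, plus strand: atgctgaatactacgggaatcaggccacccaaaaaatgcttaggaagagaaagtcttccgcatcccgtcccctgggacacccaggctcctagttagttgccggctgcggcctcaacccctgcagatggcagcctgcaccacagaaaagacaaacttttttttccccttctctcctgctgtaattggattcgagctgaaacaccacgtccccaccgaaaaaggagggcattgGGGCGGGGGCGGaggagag
Timp2, chr11:118355412-118355661, minus strand: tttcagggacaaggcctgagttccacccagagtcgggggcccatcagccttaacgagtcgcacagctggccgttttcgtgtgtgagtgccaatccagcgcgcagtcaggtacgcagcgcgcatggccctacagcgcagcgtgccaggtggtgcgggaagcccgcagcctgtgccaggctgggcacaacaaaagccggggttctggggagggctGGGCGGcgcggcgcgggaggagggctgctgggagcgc

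The Plaur window, at 59.6% G and C, held 1 AP-1 match, 69 bases before the start, and 3 overlapping or adjoining GC boxes. Mmp14 held 2 GC boxes and Timp2, at 68.0% G and C, held 1. Of 32851 promoter windows of the same length, 6.75% held the AP-1 motif, 32.7% a GC box and 12.4% a TATA box. Neither Timp1 nor Timp3 had an AP-1 match, each had 1 GC box, and none of the 5 windows had a TATA box. A match of letters is a description of the window only.

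Among the inhibitors, Timp1 was bright in all samples and did not pass the test for stage. Probe A_52_P87713 (chrX:20031508-20031566) read 3.93 and 3.84 in climacteric blastocysts and 4.17 and 2.54 in young blastocysts, against 3.76 in climacteric and 4.66 in young ooplasts. All 6 arrays were well above background and the stages overlapped. Blastocysts differed from ooplasts by -0.59 ± 0.54 (SE; limma adjusted p of 0.356). Probe A_51_P512384, 1770 bases away (chrX:20029738-20029797), was measured on the blastocyst arrays alone, and its stage difference of -0.09 ± 0.37 (SE; adjusted p of 0.842) changed sign with the scaling.

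Timp2, which inhibits metalloproteinases and at low amounts bridges Mmp14 to pro-Mmp2, varied more between arrays of a stage than any other tested probe of the 9 genes. Its single probe A_52_P540219 (chr11:118117922-118117981, minus strand) read 0.58 and -4.63 in climacteric blastocysts and -2.61 and -4.60 in young blastocysts, against 3.37 in climacteric and -1.76 in young ooplasts. Both blastocyst arrays of replicate 2 were not well above background, and the stages overlapped. The stage difference was -3.62 ± 1.55 (SE; limma adjusted p of 0.0721). It passed at an adjusted p of 0.042 without replicate 1 of the climacteric blastocysts (-4.48) and at 0.0273 without replicate 2 (-2.25). It was -1.84 with an adjusted p of 0.483 without the climacteric ooplast array, and with slide as a block it was -1.82 with an adjusted p of 0.215.

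Timp3, the inhibitor that binds to the matrix, did not pass the test for stage. Probe A_51_P463765 (chr10:85778750-85778809) read -0.75 and -0.26 in climacteric blastocysts and -2.11 and 0.16 in young blastocysts, against -0.99 in climacteric ooplasts and -3.21, not well above background, in young ooplasts. The replicates of the young blastocysts alone spanned most of that range. The stage difference was 1.36 ± 0.71 (SE; limma adjusted p of 0.123).

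Mmp2, a gelatinase that Mmp14 activates, fell in blastocysts to background. Probe A_51_P341736 (chr8:95742069-95742128) read -6.19 and -5.96 in climacteric blastocysts and -5.53 and -5.87 in young blastocysts, none of them well above background, against 0.95 in climacteric and 0.75 in young ooplasts. The ooplast arrays were close together and far above all blastocyst arrays. Its ooplast signal was at least 23.6-fold higher than that of blastocysts. The fitted difference, set against background in blastocysts, was -6.74 ± 0.28 (SE), with an adjusted p of 1.14e-05 in limma. Under normexp background correction, whose offset of 50 compresses dim signals, the fitted stage differences of the probes at background in 1 stage were smaller than these bounds, at -3.88 for Mmp2, -4.89 for Plat A_52_P409833 and 4.25 for Plaur A_52_P681310.

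Mmp14, the membrane-type enzyme that activates Mmp2, fell in blastocysts on both probes and was measured on all arrays. Probe A_51_P216303 (chr14:53395337-53395396) read -0.87 and -0.29 in climacteric blastocysts and 0.38 and -0.54 in young blastocysts, against 1.45 in climacteric and 2.18 in young ooplasts. Probe A_52_P304128, 1194 bases away (chr14:53394143-53394202), read -1.08 and -0.89 in climacteric blastocysts and -1.09 and -0.74 in young blastocysts, against 0.80 in climacteric and 0.58 in young ooplasts. On neither probe did the stages overlap. The differences were -2.14 ± 0.36 (SE; 4.42-fold lower, limma adjusted p of 0.00192) and -1.64 ± 0.27 (SE; 3.11-fold lower, adjusted p of 0.00162).

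Mmp9, the other gelatinase, did not pass when all arrays were used. Probe A_51_P401797 (chr2:164646008-164646067) read -2.22 and -0.24 in climacteric blastocysts and -0.09 and 0.41 in young blastocysts, against -1.61 in climacteric ooplasts and -2.05, not well above background, in young ooplasts. Replicate 1 of the climacteric blastocysts lay below both ooplast values while the other 3 blastocyst arrays lay above them. The stage difference was 1.30 ± 0.66 (SE; limma adjusted p of 0.118), and without that array it was 1.85 with an adjusted p of 0.00706. The value depended on which arrays entered. It was 2.21 (adjusted p of 0.0143) in the young arrays alone and 0.38 (0.721) in the climacteric arrays alone, each with 1 ooplast array and a spread that comes only from that age's 2 blastocyst arrays and the moderation over probes. With slide as a block it was 0.68 (0.378), and under normexp background correction 0.44 (0.438).

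The other Mmp9 probe, A_52_P507214, starts 317 bases from the first (chr2:164646325-164646384) and is printed as 10 spots on each array. In replicate 1 of the young blastocysts all 10 spots were well above background, between 120 and 162 signal units. On each of the other 5 arrays 0 of 10 spots were, with medians between 10.7 and 22.9 units. The 2 Mmp9 probes thus differ in where they were measured.

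**Figure D2:**
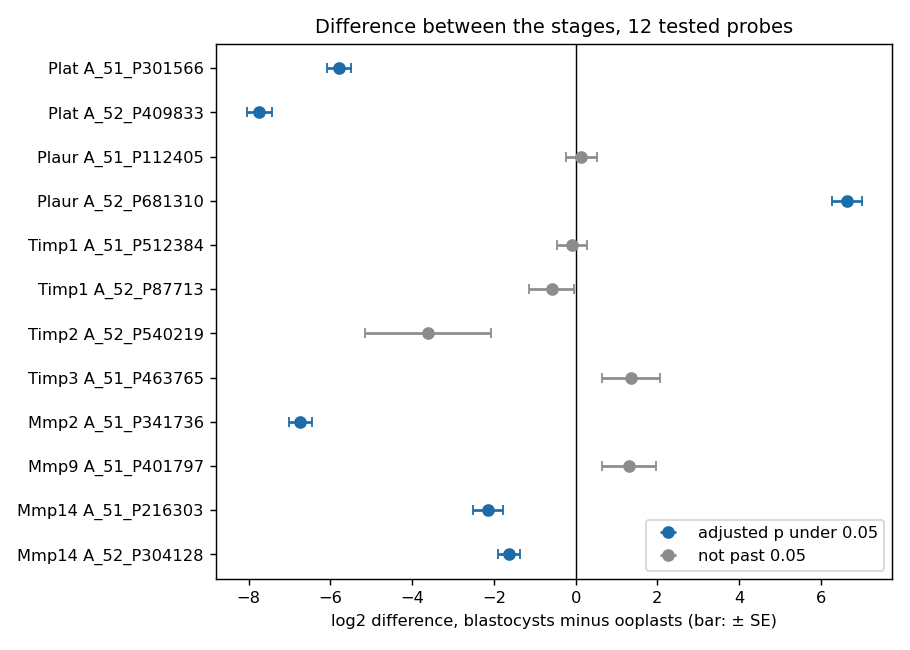
Difference in log2 level between blastocysts and ooplasts for the 12 tested probes (horizontal axis, blastocysts minus ooplasts, 4 and 2 arrays), with bars of ± SE from limma and blue points for an adjusted p under 0.05. Plaur A_52_P681310 lies at 6.64, both Plat probes and Mmp2 lie between -7.74 and -5.79, and the Mmp14 probes lie at -2.14 and -1.64. Plaur A_52_P681310, Timp1 A_51_P512384, Plat A_52_P409833 and Mmp2 were not well above background on any array of 1 stage, and their points are fitted differences and not bounds.

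The second comparison asked whether blastocysts of climacteric females differ from those of young females, with 2 arrays in each group. None of the 9 tested probes, from 6 genes, passed an adjusted p of 0.05 in limma, and only Timp1 A_51_P512384 had an unadjusted p under 0.05. The same test called 0.0% of 21648 probes over the array, with 1213 at an unadjusted p under 0.05 and a smallest adjusted p of 0.279. Timp1 A_51_P512384 read -1.93 and -1.79 in climacteric blastocysts, against -2.68 and -3.24 in young blastocysts. Its groups did not overlap, and the difference was 1.10 ± 0.34 (SE; unadjusted p of 0.0211, adjusted p of 0.753 in limma). The other Timp1 probe had a difference of 0.53 ± 0.58 (SE) with overlapping ages.

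The ages did not overlap on 4 of the 9 tested probes, against 30.7% of all tested probes. Besides Timp1 these were Plat A_51_P301566, with a difference of 0.27 ± 0.31 (SE), Plaur A_51_P112405, with 1.09 ± 0.45 (SE; adjusted p of 0.916), and Mmp9 A_51_P401797, with -1.39 ± 0.69 (SE). For Mmp9, replicate 1 set the size, since the climacteric and young arrays of slide 1 differed by -2.13 and those of slide 2 by -0.64. Timp3 differed by 0.47 ± 0.77 (SE), Mmp14 by -0.50 ± 0.44 and -0.07 ± 0.31 (SE) on its probes, and Plaur A_52_P681310 by -0.01 ± 0.33 (SE). With 2 arrays a group a difference of this size could not be told from the spread between replicates, and 12.1% of probes were at least 2-fold apart between the climacteric replicates and 11.8% between the young ones.

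Timp2 could not be tested for age in blastocysts, because it was not measured on both arrays of either age. On slide 1 its climacteric array was 3.19 higher than its young array, while on slide 2, where neither was well above background, the arrays differed by -0.03. At least a 2-fold difference was seen for 10.7% of 18831 probes within slide 1 and for 8.41% within slide 2.

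Climacteric and young ooplasts were compared on 1 array each, with no test and no replicate check. Of the 16 probes, 7 probes of 5 genes were measured on both arrays, and 1, Timp2, was at least 2-fold apart. The array-wide share past 2-fold was 17.3% of 15516 probes, with 7.39% higher and 9.92% lower in climacteric ooplasts. This split was 1146 higher and 1539 lower probes, and it turned to 1696 higher and 1239 lower when arrays were scaled on measured probes alone. Timp2 read 2460 signal units in climacteric and 69.5 units in young ooplasts. The young value, -1.76 on the log2 scale, lay near the lowest signal well above background on that array, -2.25. The size of the difference, 5.13 on the log2 scale or 35.0-fold, is thus set against a dim signal. Under the other scalings and corrections this difference was between 3.83 and 5.61.

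Among probes measured on both arrays the next in size was Plat, at 0.98 higher (1.98-fold) in climacteric ooplasts on probe A_51_P301566 and 0.39 higher on A_52_P409833. Its first probe crossed 2-fold under quantile normalization, under scaling on measured probes alone and in the authors' deposited values. Mmp2 was 0.20 higher, and the Mmp14 probes differed by -0.73 and 0.22 (climacteric minus young). Timp1 A_52_P87713 differed by -0.89. Timp3 was measured in climacteric and not in young ooplasts, where it was at least 2.39-fold higher in climacteric ooplasts. Plaur A_51_P112405 and Mmp9 A_51_P401797 were likewise measured only on the climacteric array, each at -1.61.

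Timp2 was highest on the same arrays as the summed signal of a set of macrophage and leucocyte markers. Of 18 such markers, 11 and 9 were well above background in climacteric blastocysts, 7 and 7 in young blastocysts, 11 in climacteric ooplasts and 5 in young ooplasts. Their summed signal was 5.44 and 1.98 on the log2 scale in climacteric blastocysts and 2.11 and 2.08 in young blastocysts, against 5.68 in climacteric and 2.17 in young ooplasts. On replicate 1 of the climacteric blastocysts Lyz2 alone (5.07) set most of the sum. In climacteric ooplasts Lyz2 (3.94) and Fcer1g (3.84) together set most of it. The arrays with the highest sums, the climacteric ooplasts and replicate 1 of the climacteric blastocysts, were also the arrays with the highest Timp2.

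Lyz2, the macrophage lysozyme, read 5.07 on replicate 1 of the climacteric blastocysts and 3.94 in climacteric ooplasts, and was not well above background on the remaining 4 arrays. Ctss, a lysosomal cysteine protease of antigen-presenting cells, read 1.73 and 2.51 on those arrays and was likewise not measured elsewhere, and so did Tyrobp, a leucocyte signalling adaptor, at -1.90 and 0.38. Fcer1g, the Fc receptor gamma chain, was measured on every array and read 3.84 in climacteric ooplasts, against 0.28 in young ooplasts. Of the defining markers, Itgam, Cd53, Mrc1 and C1qa were well above background on no array, Ptprc only on replicate 2 of the climacteric blastocysts, and Adgre1 and Aif1 only in climacteric ooplasts. Some other markers of the list did not share the pattern of Lyz2. C1qb was lower in climacteric than in young ooplasts (-0.17 against 0.07). Csf1r read -1.20 on replicate 1 of the climacteric blastocysts, below -0.88 on replicate 2 of the young blastocysts. Laptm5 was measured on both climacteric blastocyst arrays and Fcgr3 on all blastocyst arrays, each on no ooplast array. The part of these markers in the Timp2 result was not tested.

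Leaving out both arrays removed all climacteric ooplasts and 1 climacteric blastocyst array. In that fit, added after the values had been seen, the Timp2 stage difference was -1.84 (adjusted p of 0.145 in limma). Its ooplast arm is the 1 young array, which is assumed to vary like the blastocyst replicates, and its stage differences equal those of the young arrays alone. There 7 of 12 tested probes of the 9 genes were called for stage, beside 12941 of 21906 probes over the array. Plat, Plaur A_52_P681310, Mmp2 and Mmp14 kept their direction and call, and Mmp9 A_51_P401797 also passed (adjusted p of 0.0141).

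**Figure D3:**
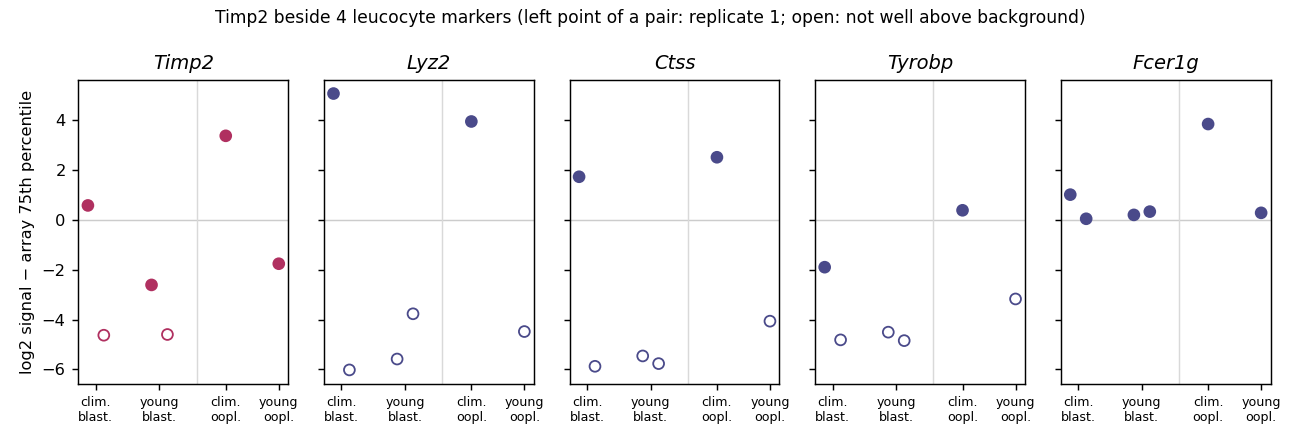
Level of Timp2 (left panel) and of the leucocyte markers Lyz2, Ctss, Tyrobp and Fcer1g on the 6 arrays, as log2 processed signal minus the log2 75th percentile of the array, with filled points for signals well above background. Replicate 1 of the climacteric blastocysts and the climacteric ooplast array hold the highest values of all 5 genes, with 3.37 for Timp2 in climacteric ooplasts. The markers shown were picked from a list of 18, and some others of that list did not share this pattern.

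Other genes of extracellular proteolysis were taken from 5 lists of 104 genes, of which 100 are on the array under the names used. A gene was represented by its brightest probe over the 6 arrays, and 64 genes could be tested for stage. In limma 29 rose and 25 fell in blastocysts and 10 did not pass. Some tested genes, given below with a bound, entered the test only through the stage where they were high. A call of theirs rests on background in the other stage and adds no support beyond where they were measured. Over all probes 73.7% were called, 35.6% higher and 38.2% lower, shares counted by probe and not by each gene's brightest probe.

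All 9 tested genes of the plasminogen system passed, 5 higher and 4 lower. S100a10 and Anxa2, which form a surface complex that binds plasminogen and Plat, rose by 4.19 ± 0.25 and 4.17 ± 0.26 (SE), and Plgrkt, a plasminogen receptor, by 2.96 ± 0.43. Thbd, the thrombin cofactor thrombomodulin, was at least 11.1-fold higher in blastocysts. On the lower side, Lrp1, an endocytic receptor that clears protease-inhibitor complexes, fell by 4.87 ± 0.80, and Serpine2, an inhibitor of plasminogen activators and thrombin, had a fitted difference of -3.14 ± 0.60. Serpine2 was well above background on only 1 of the 4 blastocyst arrays, so the size of its difference is set largely against background. Serpinf2, the main plasmin inhibitor, fell by 1.35 ± 0.33 and Hgfac, a serine protease that activates hepatocyte growth factor, fell by 1.14 ± 0.27.

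Of 17 other metalloproteinases tested, 10 fell in blastocysts, 2 rose and 5 did not pass. Among those that fell were the membrane-bound sheddases Adam17, which differed by -5.06 ± 0.32 (SE), and Adam10, with a fitted difference of -4.64 ± 0.86. Adamts9, a secreted proteoglycanase, had a fitted difference of -4.90 ± 0.76. Adam10 and Adamts9 were well above background on only 1 of the 4 blastocyst arrays each, so the sizes of their differences are set largely against background. Adam12 was measured in both ooplast samples and in no blastocyst sample, and was at least 9.07-fold higher in ooplasts. Adam15 rose by 4.13 ± 0.30 and Adamts2, a procollagen peptidase, was at least 1.79-fold higher in blastocysts.

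Inhibitors and regulators of metalloproteinases showed 5 lower, 2 higher and 1 not passing. Furin and Pcsk5, proprotein convertases, fell, Furin by 3.12 ± 0.31 (SE), while Pcsk5 was at least 20.2-fold higher in ooplasts. Fetub, the inhibitor that keeps the oocyte protease ovastacin from hardening the zona pellucida early, fell by 3.73 ± 0.36, and Spock2, a matrix proteoglycan, by 3.81 ± 0.45. Pcsk6, a further convertase, rose by 3.18 ± 0.26 and Bsg, the inducer of metalloproteinases basigin, rose by 2.97 ± 0.32, with 1 of the 2 ooplast arrays well above background.

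Among serine and cysteine proteases and their inhibitors 13 of 19 rose, 4 fell and 2 did not pass. The transmembrane serine protease Tmprss2 rose by 6.31 ± 0.25 (SE), Spint1, an inhibitor of such proteases that was measured on 1 of the 2 ooplast arrays, by 5.88 ± 0.32, and the cathepsin Ctsl by 5.27 ± 0.45. Cst6, Serpinb6a, Serpinb5 and Prss8 were measured on all blastocyst arrays and on no ooplast array, at least 24.4-fold, 11.4-fold, 9.42-fold and 5.36-fold higher in blastocysts. The cathepsins Ctsh and Ctsd fell, with differences of -3.82 ± 0.32 and -1.94 ± 0.55, as did Serpinh1, a collagen chaperone, with -1.80 ± 0.33, and the serine protease Htra3 with -0.79 ± 0.27.

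Of 11 matrix substrates, 7 rose, 2 fell and 2 did not pass. The basement membrane genes Nid1 and Lama5 rose by 7.29 ± 0.27 and 4.52 ± 0.27 (SE), and Nid2 and Fn1 (fibronectin) were at least 10.8-fold and 4.72-fold higher in blastocysts. Lamb1, a laminin chain, fell by 3.79 ± 0.38 and Dag1, a laminin receptor, by 3.66 ± 0.84. Of 11 endothelial and stromal markers, 6 to 8 were measured on the blastocyst arrays and 5 on each ooplast array, and their part in these results was not tested.

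Age gave 0 calls among 68 tested genes of these lists in blastocysts. In ooplasts, with no test, 17 of 52 measured genes passed 2-fold, beside the 17.3% of probes over the array. In climacteric ooplasts 6 were higher and 11 were lower, beside 7.39% higher and 9.92% lower over the array. Ctsb, a cathepsin, was 1.52 higher on the log2 scale, Astl, the gene of ovastacin, 1.32, Adam8 1.15, Adamts9 1.07, Plgrkt 1.06 and the cathepsin inhibitor Cst3 1.02. On the lower side, Dag1 differed by -4.26, Lrp1 by -3.35, Ctsd by -2.26, Spock2 by -2.20, Fetub by -1.60 and Ctsl by -1.59. The matrix genes Col4a1 and Lamb1 differed by -1.54 and -1.50, the metalloproteinases Mmp17 and Mmp11 by -1.46 and -1.43, and Pcsk5 by -1.04.

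**Figure D4:**
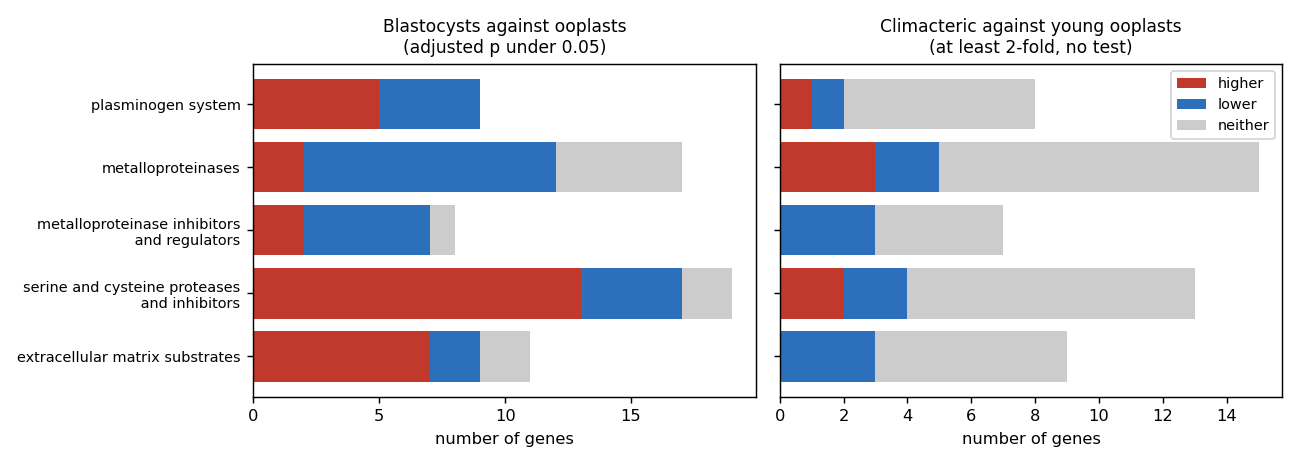
Number of genes (horizontal axis) of the 5 lists of other proteolysis genes that were higher (red), lower (blue) or neither (grey), for blastocysts against ooplasts in limma at an adjusted p of 0.05 (left) and for climacteric against young ooplasts at 2-fold without a test (right). The list of serine and cysteine proteases and their inhibitors holds 13 higher of 19 genes in blastocysts, and metalloproteinases hold 10 lower of 17. Over all probes 35.6% were higher and 38.2% lower. Some of the higher genes were at background in ooplasts, and some of the lower genes were at background in blastocysts.

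Genes most like each member over the 6 arrays were listed by Pearson's r among 12757 other genes, as a description with no p. Where a member follows the stages, many genes do so. Plat A_51_P301566 was most like Slc39a10, Dao and Gja4, but 19.6% of the candidates had an r over 0.95 with it. For Plaur A_52_P681310 the nearest were Folr1, Gtf3c5 and Dusp4 (24.2% over 0.95), for Mmp2 Cyria, Sox8 and Msh4 (20.1%), and for Mmp14 A_51_P216303 Tpmt, Numa1 and Efhc2 (2.76%).

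Fewer genes resembled the members that did not follow stage. Timp2 was nearest to Alkbh7 (r = 0.996), Epm2a (0.993) and Hdgf (0.992), and 38 genes, or 0.298%, exceeded 0.95. Hdgf read 7.08 and 5.80 in climacteric blastocysts and 6.42 and 5.63 in young blastocysts, against 7.80 in climacteric and 6.62 in young ooplasts, a far smaller range than that of Timp2. Mmp9 was nearest to Khdrbs1, Gfpt1 and Slmap (16 genes over 0.95), Timp3 to Tlcd3a, Dnase1l3 and Trim7 (6 genes), and Timp1 to Mamstr, Igf1 and Zfp2 (2 genes). All of these r values share the same 6 arrays, their scaling and the stage difference.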

How the data were processed

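Per the file headers, the deposited intensity is Agilent's processed signal, background-subtracted by spatial detrending and not scaled between arrays. The submitters' processing notes name Agilent Feature Extraction 9.5. Per the labels' protocols, RNA was column-purified without DNase treatment, amplified and labelled with Cy3. The authors also deposited a table of log2 values, which matched a quantile normalization of the processed signal to within 5e-07, with a median of 6.25 in every column. It served as an alternative.

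Control spots were dropped, spots of a probe were averaged and spots marked as outliers were left out unless all were. Saturated spots, at most 13 on an array, were kept. A probe was called well above background if more of its spots were so marked than not, and entered a test if all arrays of 1 or more of the compared groups had it so called. Tests were two-sided, by lmFit and eBayes of limma 3.58.1 under R 4.3.3, with p-values adjusted by Benjamini-Hochberg over all tested probes and a threshold of 0.05. Ooplast groups have 1 array each, so probes at least 2-fold apart were counted among those measured on both. A bound sets the bright mean against the dim arrays' lowest signal well above background, or the probe's own value if higher. Gene names of the array were updated through RefSeq: 24375 probes by accession, 6301 by symbol and 2426 by synonym, while 8072 kept the file's name. Coordinates are the files' own (mm8). Exon and UTR positions are not given, as no genome of that build was used here.

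Replicate 2 of both blastocyst groups shared slide 2, and all other arrays were on slide 1. The fits were tested on simulated data with 50 probes changed at each fold. For stage (20982 probes) 4% of probes changed 2-fold, 52% changed 4-fold and 94% changed 8-fold were recovered, and for age in blastocysts (21648 probes) 0%, 38% and 94% were. In the simulation far fewer probes were changed than the 73.7% that the stage test called. Its adjusted threshold was therefore stricter, and its stage shares do not give the share of real stage differences that the test finds.

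Members and lists were chosen with earlier results of these data known. Of other proteolysis genes, up to 4 per direction, list and comparison with the largest difference past the threshold are named, and those measured on every array of 1 stage or age and on none of the other. For each member's brightest probe the 3 genes with the highest r are named. Alternatives were quantile normalization, scaling on probes measured on all arrays, normexp with offset 50, the authors' values, other filters, slide or replicate number as a block, 1 slide or age alone, and leaving out each array. Leaving out both arrays with high leucocyte marker sums, and ooplast probes measured on either array, were added after seeing the data.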

Additional observations from a re-analysis of the deposited data

Results flagged for a closer look

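Plau probe A_52_P302433 read -1.97 in replicate 2 of the young blastocysts, the only array on which it was well above background. Among the 4 blastocyst arrays this value lay far from the rest, with a gap to the nearest array equal to 0.848 of the whole range (above Dixon's critical value for 4 samples, which chance passes in about 1 in 20 groups). The other Plau probe, A_51_P305311, was not well above background on that array.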

How the results depend on the processing

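The stage calls of Plat, Plaur A_52_P681310, Mmp2 and Mmp14 kept direction and side of the threshold under every alternative in which they were tested, but under normexp the fitted differences of probes at background in 1 stage shrank, to 4.25 for Plaur A_52_P681310 (6.64 otherwise reported), -4.89 for Plat A_52_P409833 (-7.74) and -3.88 for Mmp2 (-6.74), smaller than the bounds given on the processed signal. Leaving out 1 array gave 6 to 8 called of 12 tested probes of the 9 genes for stage. Other protease genes called were 47 (of 64) to 56 (of 68), and probes over the array 13329 (of 21850) to 15212 (of 21758). Age in blastocysts gave 0 calls. Stage gave 29232 calls of 41174 probes with no filter, with 8 of 16 probes of the 9 genes. Among probes measured on every array it gave 9781 of 13365, with 3 of 4 probes of the 9 genes. The counts moved because other probes were tested. With the replicate number as a block, age in blastocysts gave 0 calls, as without it. Replicate deviations of the ages correlated at 0.14 over 2 pairs, too small a number to treat the arrays as paired. Timp2 passed for stage under normexp (-2.67, adjusted p of 0.0419) and on slide 1 alone (-1.82, 0.0462) but not with slide as a block (-1.82, 0.215).

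In ooplasts, probes of the 9 genes at least 2-fold apart numbered 2 under quantile normalization, scaling on measured probes, the authors' values and measurement on either array, and 3 with no filter. Over the array there were 1608 of 15516 under normexp, 6972 of 41174 with no filter and 4766 of 18909 measured on either array. With no filter, 26 of 100 other protease genes passed 2-fold. With 1 array each, no ooplast array could be left out, and measurement on every array is the rule already in use. The median difference of all probes shifted with the scaling, between -0.42 and -0.091 for stage, and under scaling on measured probes it was 0.28 for ooplasts and 0.17 for age in blastocysts, against 0.14 and 0.01 under the scaling used in the report.

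Reversals fell on differences that passed no test, and the cause was not tested. For stage, Timp1 A_51_P512384 was 0.25 under quantile normalization, 0.28 in the authors' values, 0.020 with slide as a block or on slide 1 alone, 0.53 in climacteric arrays alone, and between -0.71 and 0.53 with 1 array left out. Timp1 A_52_P87713 was 0.12 in climacteric arrays alone and between -1.30 and 0.12 with 1 array left out. Plaur A_51_P112405 was -0.052 under scaling on measured probes, -0.41 under normexp, -0.038 with slide as a block or on slide 1 alone, -0.12 in young arrays alone or without both leucocyte-high arrays, and between -0.12 and 0.41 with 1 array left out. For age in blastocysts, Plaur A_52_P681310 was 0.12 under quantile normalization and in the authors' values, 0.15 under scaling on measured probes, and between -0.23 and 0.21 with 1 array left out. Mmp14 A_52_P304128 was 0.087 under scaling on measured probes and between -0.25 and 0.10 with 1 array left out, where Timp3 ranged between -0.66 and 1.61 and Timp1 A_52_P87713 between -0.29 and 1.35. Signals near background limit Plau, Mmp9 A_52_P507214, Timp2 in young ooplasts and the dim stage of Plat A_52_P409833, Plaur A_52_P681310 and Mmp2.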
